A study of Medicago truncatula with 24 samples.

Results

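miR399 is a family of 21-nt plant microRNAs known for their part in phosphate starvation. Its members were taken from the small RNA sequences counted in Medicago truncatula shoots and roots by sequence alone, because the counted sequences carry no names. A sequence was a member if an ungapped alignment of 18 nt or more to the conserved mature miR399 sequence left no more than 3 mismatches. It was also a member if it could pair with such a sequence as the opposite arm of its precursor, with a 2-nt 3′ overhang and no more than 3 mismatches. Of 427 sequences, 10 met this rule. They were 9 mature strands, all with counts, and 1 opposite arm with a count of 0 in every library. The rule itself uses no measured value. The 9 mature strands are called isoforms 1 to 9 here, in order of their total count.

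The small RNAs came from 24 libraries in 8 groups of 3, given by genotype (the A17 line as control, or the mutant cra2), organ (shoot or root) and the nitrogen given to another part of the root system. All plants grew hydroponically under 16 h of light on 0.5 mM KNO3, and their roots were split into separate compartments at 3 weeks of age. For the last 4 days before harvest at 4 weeks, the local compartment received either 10 mM NH4NO3, called satiety, or 0.05 mM KNO3, called deficit. The treatments thus differed in the salt as well as in the amount of nitrogen, which cannot be told apart here. The distant compartment of every plant received solution without mineral nitrogen. Per the design description, the sampled roots are the distant ones, so both organs report on a treatment applied elsewhere. The cra2 plants are whole-plant mutants of CRA2, a receptor kinase, and the labels used here do not give their allele or number of lines. The labels do not say that the 3 libraries of a group come from separate plants, so the p-values below measure the spread between libraries, which may be technical. Whole organs were sampled, so fewer cells containing a small RNA and less of it per cell cannot be told apart.

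In plants, miR399 is induced when phosphate is scarce and directs cleavage of the mRNA of PHO2, a ubiquitin-conjugating enzyme that lowers the amount of phosphate transporters. In Arabidopsis, miR399 made in the shoot travels through the phloem to the root, where it lowers PHO2 and raises phosphate uptake. CRA2 is the receptor of CEP peptides, which roots release when nitrogen is scarce, and takes part in adjusting root development and symbiosis.

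All 9 mature strands shared the bases at positions 2 to 8, the seed that weighs most in target pairing. The 6 isoforms with at least 10 counts are shown because they are told apart only by bases outside the seed. The seed is in capitals, and bases are written 5′ to 3′ with T for U as in the counted sequences.
isoform 1: tGCCAAAGgagatttgccctg
isoform 2: tGCCAAAGgagagctgccctg
isoform 3: tGCCAAAGgagagctgctctt
isoform 4: tGCCAAAGgagagctgcccta
isoform 5: tGCCAAAGgagagttgccctg
isoform 6: tGCCAAAGgagatttgcccag
Positions are counted from 1 at the 5′ end, and the base of isoform 1 comes first in each difference. Isoform 2 differs from isoform 1 by T13G and T14C. Isoform 3 has the same 2 differences and also C18T and G21T, and isoform 4 has them with G21A. Isoform 5 carries T13G alone and isoform 6 carries T20A alone. Isoform 7 differs by G9A, isoform 9 by G9A and T20C, and isoform 8 by T1C, G9A and T20C. Isoforms 2, 3 and 4 thus share GC at positions 13 and 14, where isoform 1 has TT. The isoforms are alike enough that the authors' counting, which is not described in the sources used here, could have divided reads among them, so values of single isoforms are less certain than their sum.

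The family was rare. Its counts summed to 1001 over all libraries, or 0.00191% of 52312029 counts. Isoform 1 made up 585 of them (58.4%) and had counts in all 24 libraries. Isoform 2 had 174 counts (17.4%), isoform 3 had 94 (9.39%), isoform 4 had 87 (8.69%), isoform 5 had 37 and isoform 6 had 18. Isoform 7 had 4 counts, and isoforms 8 and 9 had 1 count each. Library totals ran from 1494211 to 3919811 in shoots and from 768323 to 1661422 in roots, and 1 sequence matching miR159 held 67.1% to 84.9% of each. In the fits within 1 organ, a shoot library of cra2 under deficit (replicate 2) stood apart. Its TMM scaling factor was 1.80 against 0.76 to 1.23 in the other 23. Calls of miR399 that were lost or gained without a single library are named beside their values or in the closing section.

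The level of the family is given as CPM (counts per 1 M counts in a library) with TMM scaling, which corrects that total for a few very abundant sequences. On the scale of all 24 libraries, mean ± SD (n = 3) was highest in A17 roots under satiety at 49.3 ± 7.10 CPM. A17 shoots under satiety followed at 36.2 ± 5.68, A17 roots under deficit at 24.2 ± 3.47 and A17 shoots under deficit at 14.5 ± 4.02 CPM. The cra2 shoots had 13.3 ± 1.05 CPM under satiety and 12.8 ± 0.692 under deficit, and the cra2 roots had 5.65 ± 2.07 and 3.22 ± 2.28. Neighbours in this order overlapped in their libraries at 4 steps, namely between the 2 highest groups, between A17 shoots under deficit and cra2 shoots under satiety, between both groups of cra2 shoots, and between both groups of cra2 roots. At the other 3 steps the libraries did not overlap. Levels below are on the scale of 1 organ, except where organs are compared.

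**Figure D1:**
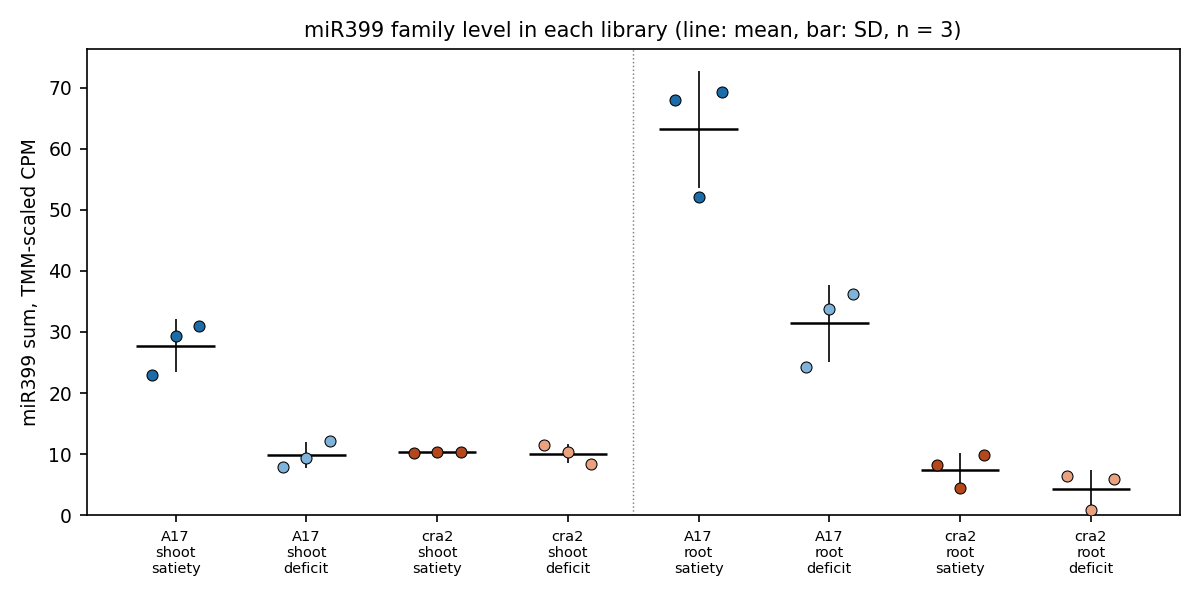
Level of the miR399 family in each library, as TMM-scaled CPM computed within shoots (left of the dotted line) and within roots (right), so heights compare within an organ only. Points are libraries, horizontal lines are group means and vertical bars are SD (n = 3), cut at 0. The A17 satiety libraries lie above the A17 deficit libraries in both organs, and the cra2 roots lie below all A17 roots.

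Nitrogen deficit in the local compartment went with less miR399 in A17 shoots. The 3 libraries under satiety had 72, 97 and 104 counts (22.9, 29.3 and 31.1 CPM), and the 3 under deficit had 24, 28 and 36 counts (7.96, 9.41 and 12.2 CPM). Every deficit library was below every satiety library. The sum fell by 1.49 ± 0.26 (SE) on the log2 scale, or 2.82-fold (edgeR quasi-likelihood test, adjusted p = 0.00741). In this comparison 3.9% of the 154 families and unassigned sequences tested were called, that is, reached an adjusted p under 0.05. The call held without each of the 6 libraries in turn, and was lost with library totals in place of TMM scaling (log2 change of -1.62, adjusted p = 0.0899).

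No single isoform passed the test in A17 shoots, where 0% of the 189 single sequences were called by edgeR, against 62 at an unadjusted p under 0.05 and 33 called by DESeq2. Isoform 1 had 46, 48 and 40 counts under satiety and 21, 16 and 23 under deficit, and its log2 change was -1.08 ± 0.27 (adjusted p = 0.0525). Isoform 2 had 11, 18 and 24 counts against 0, 4 and 4, with a log2 change of -2.58 ± 0.68 (adjusted p = 0.0525). Isoform 3 had 11, 14 and 26 counts against 1, 3 and 2, with a log2 change of -2.91 ± 0.66 (adjusted p = 0.0525). The libraries of the 2 treatments did not overlap for any of these 3 isoforms, and how many of all 189 sequences did not overlap was not counted. Under other settings isoform 1 was called in 4 of 10, isoform 2 in 2 of 9 and isoform 3 in 3 of 8, and each was called with only the 6 compared libraries in the fit (adjusted p = 0.00473, 0.00115 and 0.000744). Isoforms 2 and 3 met the count filter of the test in shoots only through the A17 satiety libraries, which favours a fall under deficit in advance. Isoform 4 was too rare to be tested in shoots, with 1, 5 and 10 counts against 1, 1 and 4.

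The family was lower under deficit in A17 roots as well. The satiety libraries had 100, 81 and 114 counts (68.0, 52.1 and 69.2 CPM), and the deficit libraries had 40, 41 and 49 counts (24.3, 33.8 and 36.2 CPM). Again no deficit library reached the lowest satiety library. The sum fell by 1.01 ± 0.31 on the log2 scale, or 2.02-fold (edgeR, adjusted p = 0.0230), where 25.5% of 137 families and unassigned sequences were called, so a call was common here. The call was kept in only 1 of the 6 fits that left out a library of these groups (adjusted p up to 0.122), and all 6 kept the direction. It was kept without replicate 3 of the deficit group and lost without any other, and it was lost with upper-quartile scaling (adjusted p = 0.0741).

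Both isoforms that could be tested in roots fell. Isoform 2 met the count filter of the test there only through the A17 satiety libraries, which favours a fall in advance. Isoform 1 had 50, 49 and 47 counts under satiety and 17, 25 and 23 under deficit, with 31.4 ± 3.14 against 15.0 ± 4.48 CPM and a log2 change of -1.07 ± 0.35 (edgeR, adjusted p = 0.0226). Isoform 2 had 25, 20 and 32 counts against 8, 4 and 10, with 16.4 ± 3.13 against 4.87 ± 1.67 CPM and a log2 change of -1.72 ± 0.48 (adjusted p = 0.0131). Neither isoform overlapped between treatments, and how many of all sequences did not overlap was not counted. Of 168 sequences 31% were called. Without single libraries isoform 1 lost its call in 5 of 6 fits, all but the one without deficit replicate 2, and isoform 2 in 3 of 6 (without deficit replicates 1 or 2, or satiety replicate 3). Isoform 1 was also not called with library totals or upper-quartile scaling, nor isoform 2 with all 24 libraries in the fit (adjusted p = 0.0545, 0.122 and 0.0554). Isoform 3 had 5, 3 and 10 counts under satiety against 7, 2 and 8 under deficit, and isoform 4 had 15, 5 and 19 against 8, 10 and 6, so both overlapped. Isoform 6 had 3, 3 and 4 counts in A17 roots under satiety and 0 in all 3 libraries under deficit.

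In cra2 shoots the levels of the 2 treatments lay close together. The satiety libraries had 33, 29 and 32 counts (10.1, 10.4 and 10.4 CPM) and the deficit libraries 36, 28 and 19 counts (11.5, 10.4 and 8.39 CPM). The treatments overlapped. The log2 change was -0.03 ± 0.27 (edgeR, adjusted p = 0.997), and 0% of the 154 families and unassigned sequences were called, with 9 at an unadjusted p under 0.05 and 0 called by DESeq2. Isoform 1, with 9.13 ± 0.916 CPM under satiety and 9.08 ± 1.33 under deficit, made up 84.0% and 90.4% of these counts. Its log2 change was -0.00 ± 0.27 (adjusted p = 0.9999), and 0% of 189 sequences were called by edgeR (12 at an unadjusted p under 0.05, 0 by DESeq2).

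In cra2 roots counts were few. The satiety libraries had 11, 5 and 8 counts (8.23, 4.46 and 9.81 CPM) and the deficit libraries 6, 1 and 7 (6.37, 0.926 and 5.89 CPM). The treatments overlapped, and the log2 change of -0.74 ± 0.52 did not pass the test (edgeR, adjusted p = 0.291), while 24.1% of 137 families and unassigned sequences did. Isoform 1 had 8, 3 and 7 counts against 4, 1 and 3, with a log2 change of -1.33 ± 0.62 (adjusted p = 0.121; 28.6% of 168 sequences called). At this depth a fall of the size seen in A17 roots could not be told from none.

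Whether cra2 plants responded differently from A17 plants was tested as the difference of the 2 nitrogen responses. In shoots the response of the sum in cra2 was 1.47 ± 0.37 higher on the log2 scale than in A17 (edgeR, adjusted p = 0.0549), which misses the threshold. Here 0% of the 154 families and unassigned sequences were called by edgeR, with 47 at an unadjusted p under 0.05 and 22 called by DESeq2, and the miR399 sum was called by DESeq2 and with library totals (adjusted p = 0.0158 and 0.0367). For isoform 1 the difference in shoots was 1.08 ± 0.38 (adjusted p = 0.0976), called only with all 24 libraries among 9 other settings (adjusted p = 0.0402). In roots the difference for the sum was 0.27 ± 0.64 (adjusted p = 0.890), and 0% of 137 were called by edgeR, with 16 at an unadjusted p under 0.05 and 0 by DESeq2. The SE in roots is wide enough that a difference as large as that in shoots lies within about 2 SE of the value.

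The genotypes differed most in roots. Under satiety the A17 roots had 63.1 ± 9.54 CPM of miR399 and the cra2 roots 7.50 ± 2.75. The sum was lower in cra2 by a log2 difference of -3.08 ± 0.38, or 8.46-fold (edgeR, adjusted p = 5.88e-07), where 21.9% of 137 families and unassigned sequences were called. Under deficit the values were 31.4 ± 6.29 and 4.39 ± 3.01 CPM, with a log2 difference of -2.81 ± 0.43, or 7.03-fold (adjusted p = 1.80e-05; 29.9% called). No cra2 root library reached the lowest A17 root library of either treatment. The sum met the count filter of the test in roots only through A17 libraries, which favours a lower level in cra2 in advance. Both calls held without each library in turn and under all 13 other settings.

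All of the 4 most abundant isoforms had fewer counts per library total in cra2 roots than in A17 roots. Isoform 1 had 146 counts in A17 and 18 in cra2 under satiety, a log2 difference of -2.34 ± 0.42 (edgeR, adjusted p = 0.000236; 26.2% of 168 sequences called). Under deficit it had 65 and 8 counts, with -2.60 ± 0.52 (adjusted p = 0.000559; 32.7% called). The libraries of the 2 genotypes did not overlap in either treatment, and how many of all 168 sequences did not overlap was not counted. Isoform 1 also met the count filter in roots only through A17 libraries, which favours a lower level in cra2 in advance.

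Isoform 2 had 77 counts in A17 roots and 2 in cra2 roots under satiety and was called (adjusted p = 0.000152). It met the count filter in roots only through the A17 satiety libraries, which favours a lower level in cra2 in advance. Because 1 side had so few counts, the ratio of counts per library total is given, 25.8 with a 95% counting interval of 6.89 to 217. Under deficit isoform 2 had 22 counts in A17 roots and 4 in cra2 roots, all 4 of them in replicate 3, and the log2 difference of -1.99 ± 0.79 was not called (adjusted p = 0.0572), although it was called without that library and with upper-quartile scaling (adjusted p = 0.0329). Isoform 4 was too rare for the test in roots. It had 63 counts in the 6 A17 root libraries and 2 in the 6 cra2 root libraries, a ratio of 21.5 (5.72 to 182). Isoform 3 had 35 and 1, a ratio of 23.9 (4.02 to 972). These intervals cover counting error only.

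In shoots the genotypes differed under satiety. A17 shoots had 27.8 ± 4.27 CPM and cra2 shoots 10.3 ± 0.152, and no cra2 library reached the lowest A17 library. The log2 difference was -1.43 ± 0.26, or 2.69-fold lower in cra2 (edgeR, adjusted p = 0.0113), where 3.9% of 154 families and unassigned sequences were called. The call held without A17 replicate 1 or cra2 replicate 1 and was lost without any of the other 4 libraries (adjusted p up to 0.0822). With library totals the log2 difference was -1.35 and not called (adjusted p = 0.0773). Under deficit the levels were 9.84 ± 2.13 in A17 and 10.1 ± 1.57 in cra2 and overlapped, with a log2 difference of 0.04 ± 0.27 (adjusted p = 0.915; 8.44% called).

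The isoforms did not share this shoot difference evenly. Isoform 1 had 13.6 ± 1.78 CPM in A17 and 9.13 ± 0.916 in cra2 under satiety, a log2 difference of -0.57 ± 0.26 that was not called (edgeR, adjusted p = 0.238; 6.88% of 189 sequences called). Under deficit it had 6.37 ± 0.821 in A17 and 9.08 ± 1.33 in cra2, a log2 difference of 0.51 ± 0.27 in the other direction, also not called (adjusted p = 0.221; 13.2% called). In neither treatment did the libraries of the 2 genotypes overlap for isoform 1, but how many of all 189 sequences did not overlap was not counted.

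Isoform 2 had 11, 18 and 24 counts in A17 shoots under satiety and 2, 3 and 1 in cra2 shoots, a log2 difference of -2.85 ± 0.72 (edgeR, adjusted p = 0.0229). Its call was lost without any single library except A17 replicate 1. Isoform 3 had 51 counts in A17 shoots and 1 in cra2 shoots under satiety and was called (adjusted p = 0.0180), with a ratio of counts per total of 45.5 (7.81 to 1832). Its call was lost without A17 replicates 2 or 3 or cra2 replicate 3. Isoforms 2 and 3 met the count filter in shoots only through the A17 satiety libraries, so the direction of both calls was favoured in advance. Isoform 4 had 22 counts in the 6 A17 shoot libraries and 0 in the 6 cra2 shoot libraries, which puts it at least 5.52-fold lower in cra2, taking 3 counts over the cra2 libraries as the limit that a count of 0 allows. Isoform 5 had 19 and 10 counts, a ratio of 1.43 whose interval of 0.632 to 3.44 includes no difference.

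**Figure D2:**
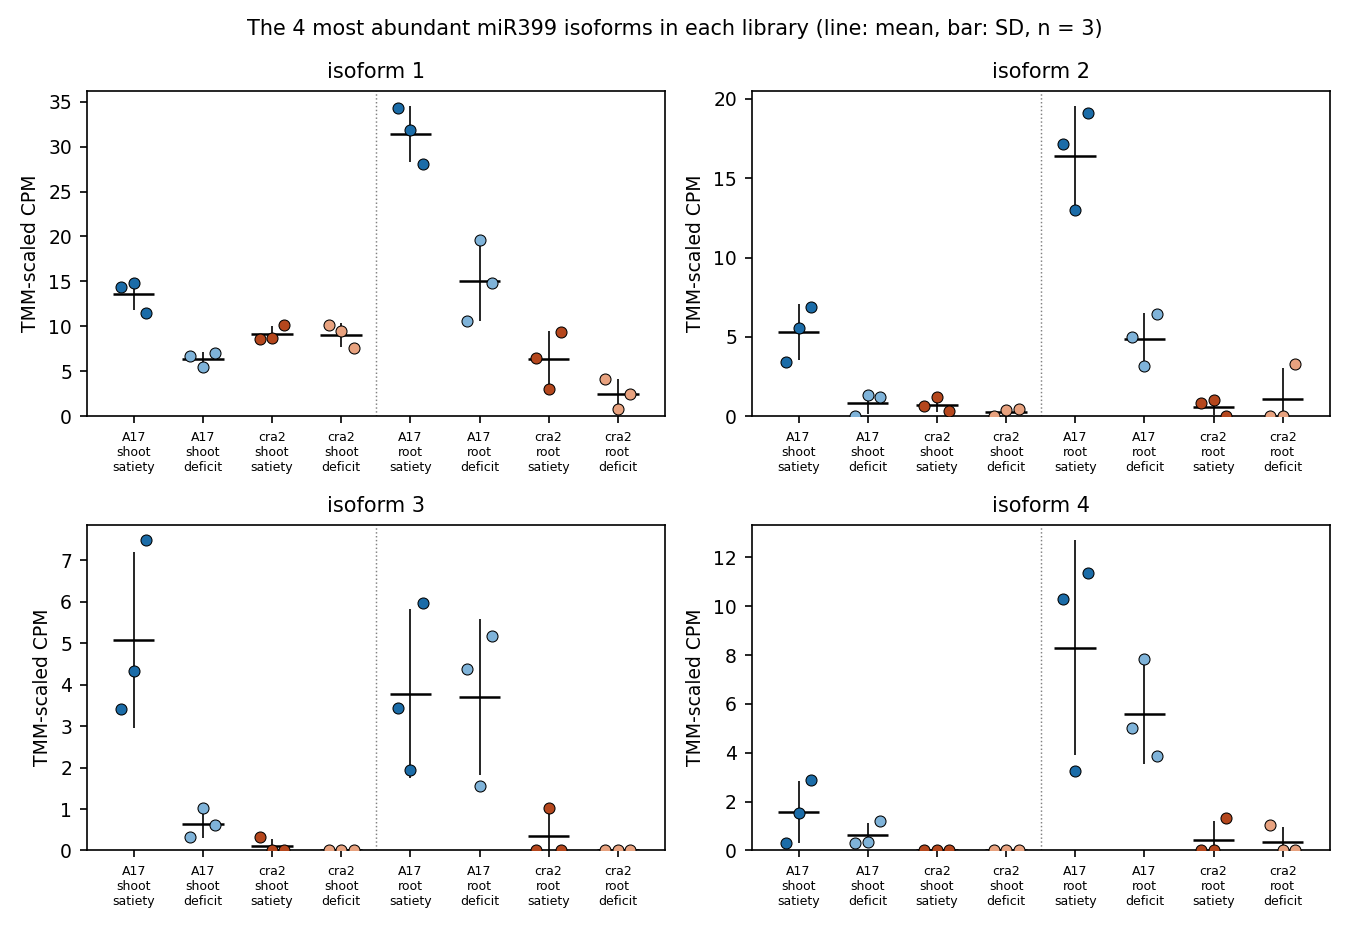
Levels of isoforms 1 to 4 in each library as TMM-scaled CPM, with shoots left and roots right of each dotted line, each organ on its own scale. Points are libraries, lines are means and bars are SD (n = 3), cut at 0. Isoform 1 stays between 7.60 and 10.2 CPM in the cra2 shoots, while isoforms 3 and 4 are at or near 0 in all cra2 libraries.

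The make-up of the family is described here without a test. The intervals pool the counts of 6 libraries over both treatments and cover counting error only, not the spread between libraries. The isoforms with GC at positions 13 and 14 (2, 3 and 4) made up 140 of 361 miR399 counts in A17 shoots, or 38.8% (95% Clopper-Pearson interval 33.7% to 44.0%, range over libraries 8.33% to 57.7%). In A17 roots they made up 197 of 425, or 46.4% (41.5% to 51.2%, libraries 34.6% to 57.5%). In cra2 shoots they made up 9 of 177, or 5.08% (2.35% to 9.43%, libraries 0% to 10.3%). In cra2 roots they made up 9 of 38, or 23.7% (11.4% to 40.2%, libraries 0% to 57.1%), a share that so few counts leave uncertain. The cra2 shoot libraries therefore lay below the A17 shoot libraries with 1 overlap at the low end, the A17 library with 8.33% being replicate 1 under deficit.

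Within A17 shoots the GC isoforms made up 44.0% of the family under satiety and 22.7% under deficit. In A17 roots they made up 45.4% and 48.5%. Isoform 1 made up 53.7% of the family in A17 shoots, 49.6% in A17 roots, 87.0% in cra2 shoots and 68.4% in cra2 roots.

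**Figure D3:**
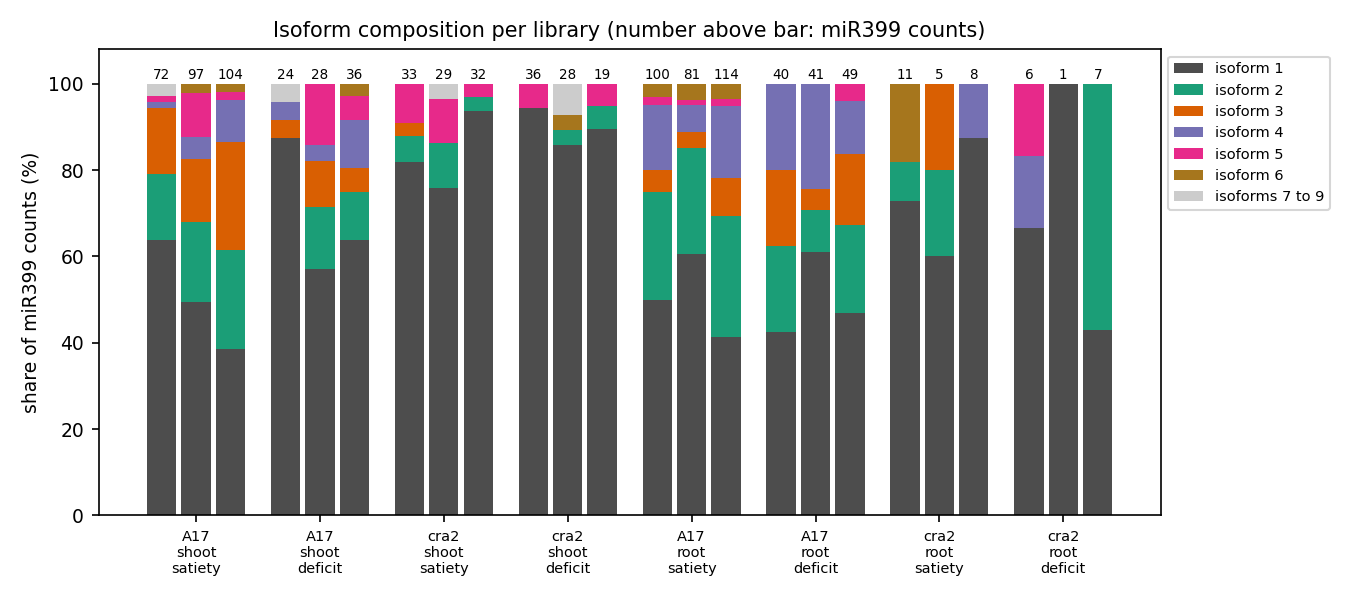
Share of each isoform among the miR399 counts of each library, in percent, with the 3 libraries of a group side by side and the number of miR399 counts above each bar. Isoform 1 holds 75.9% to 94.4% of the counts in the 6 cra2 shoot libraries and 38.5% to 87.5% in the 6 A17 shoot libraries. Bars of the cra2 roots rest on 1 to 11 counts.

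Shoots and roots were compared over all 24 libraries, on the scale on which the order of the groups was given above. In A17 under satiety shoots had 31.5, 34.5 and 42.5 CPM and roots 51.7, 41.3 and 55.0 CPM. The organs overlapped, and the log2 difference of shoots minus roots was -0.45 ± 0.29 (edgeR, adjusted p = 0.192), where 49.7% of 161 families and unassigned sequences were called. It was called in 2 of 12 other settings, with library totals (-1.22) and with only the libraries compared (-0.65). Under deficit shoots had 10.1, 15.2 and 18.1 CPM and roots 20.7, 24.3 and 27.6 CPM. They did not overlap, and the difference was -0.75 ± 0.32 (adjusted p = 0.0464; 57.1% called). This call was kept only without A17 shoot replicate 3 among the 6 fits that left out a library, and under 9 of 12 other settings.

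In cra2 the order of the organs was the other way round. Under satiety shoots had 12.6, 12.8 and 14.5 CPM and roots 6.31, 3.32 and 7.31, with a log2 difference of 1.25 ± 0.37 (edgeR, adjusted p = 0.00729; 45.3% called). It was not called without cra2 root replicate 2 (adjusted p = 0.0628), with library totals (log2 difference of 0.46, adjusted p = 0.366) or with upper-quartile scaling (0.87, adjusted p = 0.0542). Under deficit shoots had 13.4, 12.9 and 12.04 CPM and roots 4.70, 0.594 and 4.35, with a difference of 2.02 ± 0.41 (adjusted p = 0.000212; 49.1% called), which held without each library. No cra2 root library reached a cra2 shoot library.

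Isoform 1 followed this pattern in cra2, with 10.99 ± 1.15 CPM in shoots and 4.74 ± 2.45 in roots under satiety (log2 difference of 1.25 ± 0.37, edgeR adjusted p = 0.00648; 46% of 200 sequences called). This call too was lost without cra2 root replicate 2 (adjusted p = 0.0733) and with library totals (0.61, adjusted p = 0.234). Under deficit it had 12.3 ± 2.14 and 1.92 ± 1.32 CPM, a difference of 2.71 ± 0.42 (adjusted p = 8.59e-06; 48.5% called). In A17 isoform 1 was not called between organs in either treatment (adjusted p = 0.262 and 0.178), though it was with library totals in both (-1.20 and -1.40) and under deficit with a filter of 10 CPM (-0.80). The isoforms of A17 called between organs were 2 and 4 under deficit, both lower in shoots. Isoform 4 met the count filter only through A17 root libraries, which favours a lower level in shoots. Isoform 2 had a log2 difference of -1.79 ± 0.73 (adjusted p = 0.0389) and isoform 4 of -2.33 ± 0.82 (adjusted p = 0.0196), where 56% of 200 sequences were called. The call of isoform 2 was kept only without root or shoot replicate 2 and in 3 of 8 other settings (adjusted p up to 0.108), and that of isoform 4 only without root replicates 1 or 3 or shoot replicate 3. Under satiety isoform 4 had a difference of -1.51 ± 0.66 (adjusted p = 0.0596; 49.5% called), and was called without root replicate 2 or shoot replicate 3 and in 4 of 7 other settings.

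The organ differences of the 2 genotypes were then compared directly, a comparison added after the values were seen. Under deficit the shoot-to-root difference of the sum was 2.77 ± 0.52 higher on the log2 scale in cra2 than in A17 (edgeR, adjusted p = 0.000717), where 13% of 161 families and unassigned sequences were called. It held without each of the 12 libraries and under all 12 other settings. For isoform 1 it was 3.24 ± 0.54 (adjusted p = 0.000254; 12.5% of 200 sequences called). Under satiety the difference for the sum was 1.69 ± 0.47 and was not called (adjusted p = 0.0804; 1.24% called), except in 4 of 12 other settings and without cra2 root replicate 1. The nitrogen response of shoots did not differ from that of roots beyond the error in A17 (-0.30 ± 0.43, adjusted p = 0.663; 26.7% called) or in cra2 (0.78 ± 0.56, adjusted p = 0.704; 1.24% called).

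**Figure D4:**
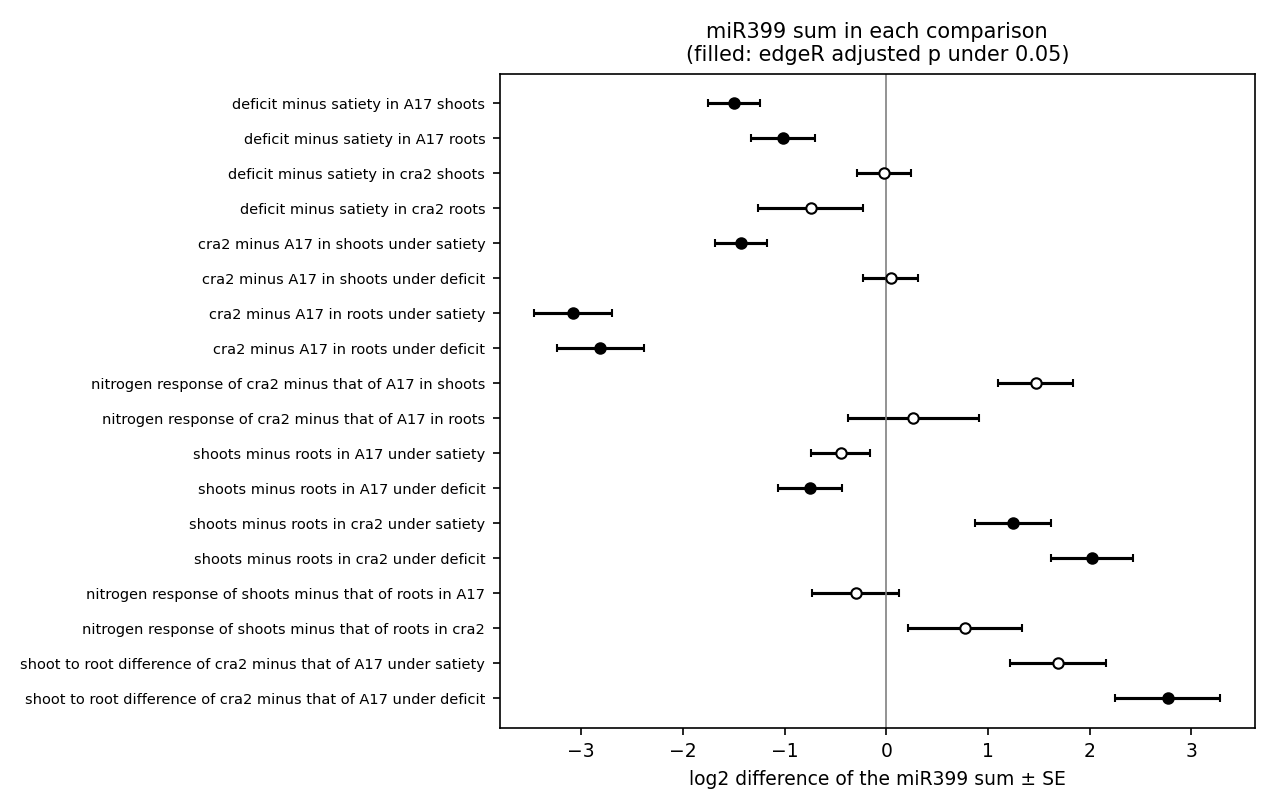
Log2 difference of the miR399 sum in each of the 18 comparisons, with bars of 1 SE from the edgeR fit. Filled points reached an adjusted p under 0.05 over all families and unassigned sequences tested. The differences farthest from 0 are the cra2 minus A17 comparisons in roots, at -3.08 and -2.81.

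Other miRNA families that respond to phosphate starvation in Arabidopsis were described as sums from a list of 7, of which miR156, miR778, miR827 and miR2111 rise there and miR169, miR395 and miR398 fall. No counted sequence matched miR778 or miR827 by the alignment used here, and miR395, which targets sulfate assimilation genes, was too rare to test, with 74 counts. The other 4 were tested in the same fits. Under deficit none was called in A17 shoots, where miR399 fell and 3.9% of all 154 tested were called. Their median log2 change was 0.27 against -0.11 over all families and sequences tested. In A17 roots 1 rose and 1 fell where 25.5% of all tested were called (21 higher, 14 lower), and the median was 0.34 against -0.00. miR2111, which moves from shoot to root and targets the symbiosis regulator TML in legumes, was higher under deficit as the sum of 1 mature and 7 opposite-arm sequences (308 ± 50.8 CPM under satiety, 632 ± 134 under deficit, log2 change of 1.03 ± 0.35, edgeR adjusted p = 0.0413). miR156, which targets SPL transcription factors, was lower (1721 ± 148 and 1149 ± 290 CPM, log2 change of -0.58 ± 0.21, adjusted p = 0.0467). The call of miR2111 or miR156 or both was lost without each of the 6 libraries, since 0 or 1 call was left in each of these fits. In cra2 shoots none of the 4 was called where 0% of all 154 tested were called, with a median of 0.44 against 0.02 over all. In cra2 roots miR398, which targets copper proteins, was higher under deficit (376 ± 96.9 and 773 ± 284 CPM, log2 change of 1.04 ± 0.24, adjusted p = 0.00357). There 24.1% of all 137 tested were called (23 higher, 10 lower), and the median was 0.42 against 0.19.

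Between genotypes, 3 of the 4 families were lower in cra2 roots in both treatments, where 21 of 137 families and sequences were lower under satiety and 22 under deficit (21.9% and 29.9% called in either direction). Under satiety miR2111 had 308 ± 50.8 CPM in A17 and 61.1 ± 36.2 in cra2 (log2 difference of -2.34 ± 0.38, edgeR adjusted p = 0.000178). miR398 had 1302 ± 207 and 376 ± 96.9 CPM (-1.79 ± 0.25, adjusted p = 4.90e-06), and miR169, which targets NF-YA transcription factors, had 226 ± 22.4 and 128 ± 17.3 CPM (-0.82 ± 0.26, adjusted p = 0.0229). The same 3 were lower under deficit, with differences of -2.69 ± 0.37, -1.12 ± 0.24 and -1.12 ± 0.26, and miR156 was higher by 0.62 ± 0.21 (adjusted p = 0.0291). The medians of the 4 were -1.31 under satiety and -1.12 under deficit, against 0.08 and 0.14 over all tested. In cra2 shoots miR2111 alone was called, at -3.11 ± 0.77 under satiety (adjusted p = 0.0404) and -2.63 ± 0.75 under deficit (adjusted p = 0.0487). Of 154 families and sequences, 3.9% were called under satiety (4 lower) and 8.44% under deficit (6 lower). Neither shoot call held without each library in turn, since under satiety no fit without a single library kept it, and under deficit only those without cra2 replicates 1 or 3 did. The 4 comparisons share the A17 and cra2 libraries with those of miR399, so these values are set beside each other only. Between organs miR156 was higher in shoots in all 4 comparisons (log2 differences of 2.91 to 3.92) and miR398 in 3 of 4, all but A17 under deficit. Calls were common there, at 45.3% to 57.1% of 161 families and sequences (36 to 42 higher in shoots). No family of the list was called for a difference between genotypes or organs in the response to nitrogen. Of all tested, 0% were called for the genotype difference in either organ. For the organ difference 26.7% were called in A17 and 1.24% in cra2.

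The level pattern of the miR399 sum over the 8 groups was also set against that of every other family or unassigned sequence, using Pearson's r of the group means of log2(CPM + 1). This is a description over 8 points that share library scaling, without a test. The 5 most alike included miR398 (r = 0.736) and 4 sequences to which the alignment used here assigned no family. That alignment covered a limited list of conserved families, so these 4 may belong to known families outside it. Whether any of the 5 share an origin was not tested. The 4 are shown with no base marked because they are known here by their bases alone.
rank 1: cgaggaggcggtattgtttgaa
rank 2: acaaagacattggaaggctta
rank 3: tccaatgtaatctaggtcta
rank 5: tcaaagggaggtgtggagtag
The closest, of 22 nt, had r = 0.953 with 128 counts in all, and its group means ran from 1.55 CPM in cra2 roots under satiety to 4.35 CPM in A17 roots under satiety. The others had r = 0.810 (4182 counts), 0.766 (437 counts) and 0.735 (12772 counts). For miR169, miR2111 and miR156 r was 0.579, 0.578 and 0.181.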

How the data were processed

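Small RNAs of 24 libraries were prepared with the NEXTFLEX Small RNA-seq kit from total RNA, per the labels' protocols. The authors deposited whole-number counts per sequence for the same 427 sequences in every library. Reads were processed with cutadapt, per the submitters' processing notes (version not stated). The sources used here do not say how reads were aligned and counted or where the sequence list came from. No genome of the species was used, so no loci, precursors or target sites are reported.

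Families were named by alignment to 35 conserved mature sequences of 34 families written from textbook knowledge. The miR399 pattern allows alternative bases at variable positions, and every mature member lies within 3 mismatches of at least 1 plain version. Against other plain versions isoforms 3, 4 and 8 have up to 5, 4 and 4 mismatches, so their membership depends on the alternative bases. Opposite arms needed at least 16 paired positions and at most 4 GU pairs. The members and lists were chosen with earlier results of these data known, and the 2 comparisons of organ differences between genotypes were added after the values were seen.

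The deposited counts were tested with edgeR 4.0.16 in R 4.3.3 (quasi-likelihood, robust, TMM scaling, filterByExpr with a minimum count of 10, Benjamini-Hochberg adjustment over all rows tested, threshold 0.05). The 12 libraries of an organ were fitted together, and all 24 for comparisons between organs. Isoforms 2 and 3 in shoots and isoform 2 in roots met the filter only through A17 satiety libraries. In roots the sum and isoform 1 met it only through A17 libraries. Lower values in the other groups were thereby favoured. The miR399 sum was tested in a table of family sums and unassigned sequences and isoforms in the table of single sequences, each with its own scaling, so isoform CPM need not add up to the sum. Fitted differences are given where each group had at least 4 counts; otherwise count ratios with exact 95% intervals (scipy 1.17.1) or a floor of 3 counts over the group. Depth sets the precision, since a library held 1 to 114 miR399 counts, and intervals cover counting error only because molecular identifiers are not mentioned. Named items were all members (in full at 10 or more counts), the phosphate-linked families and the 5 most alike features. How many of all features did not overlap between groups was not counted in any comparison, so statements of overlap describe the named item only. Replicate libraries differed beyond counting noise (chi-square per degree of freedom from 26.4 to 476), and each was counted as 1 replicate. Same-numbered libraries of the 2 treatments deviated together in A17 roots (correlations of 0.209, 0.136 and 0.349), a pairing seen in the data and not stated in the labels; in no other comparison within an organ were all 3 correlations over 0.1. Alternatives were RLE, upper-quartile and library-total scaling, DESeq2 1.42.0, other filters, other sets of libraries, a replicate block and leaving out each library.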

Additional observations from a re-analysis of the deposited data

Results flagged for a closer look

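In a comparison added after the values were seen, the shoot-to-root difference of miR399 differed between genotypes under deficit when tested directly. For the family sum it was 2.77 higher on the log2 scale in cra2 than in A17 (edgeR, adjusted p = 0.000717), and for isoform 1 it was 3.24 higher (adjusted p = 0.000254). The 1.80 of the cra2 shoot library that stood apart (replicate 2 under deficit) is its scaling factor in the fit of shoots. Both values here come from the fit of all 24 libraries, which has its own factors. There cra2 root replicates 1 and 2 under deficit had larger factors for the sum than that library. Both calls held without that library and without each of the other libraries compared. The comparison is not independent of the genotype differences of the sum under deficit. In the fits within 1 organ these were 0.04 in shoots and -2.81 in roots.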

How the results depend on the processing

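Of 223 values of the sum under other settings, 200 kept their direction and their side of the threshold, as did 119 of the 144 values without a single library; for isoforms it was 193 of 233 and 141 of 174. With library totals in place of TMM scaling the log2 value of the sum was -1.62 (deficit, A17 shoots) and -1.35 (cra2 minus A17, shoots, satiety), neither called, 0.36 (deficit, cra2 shoots), 1.99 (difference of nitrogen responses, shoots, called), -1.22 (shoots minus roots, A17, satiety, called) and 0.46 (the same in cra2, not called). Library totals also moved the median of all features, to -0.28 in A17 shoots under deficit against -0.11, and to between -0.57 and -1.03 between organs. Upper-quartile scaling gave -0.82 (deficit, A17 roots) with no call, -0.019 (cra2 minus A17, shoots, deficit), -0.39 (difference of nitrogen responses, roots), and without a call -0.58 and 0.87 (shoots minus roots, A17 deficit and cra2 satiety). The deficit change in cra2 shoots was 0.018 with RLE, 0.023 with DESeq2 and 0.035 with a filter of 10 CPM in 3 libraries; for isoform 1 it was 0.12 (RLE), 0.45 (library totals), 0.062 (most abundant sequence left out), 0.12 (DESeq2), 0.081 (no filter), 0.15 (10 CPM), 0.12 (only the libraries compared) and 0.17 (all 24 libraries). DESeq2 called the difference of nitrogen responses in shoots (1.49). All 24 libraries gave -0.16 for cra2 minus A17 in shoots under deficit. Shoots minus roots in A17 was -0.65 under satiety (called) and -0.65 under deficit (not called) with only the libraries compared, and -0.57 under deficit without a filter. The organ difference of cra2 minus A17 under satiety was called with RLE (1.75), DESeq2 (1.76), only the libraries compared (1.80) and the most abundant sequence left out (1.95). The cause was not tested.

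Leaving out single libraries moved the sum between -1.14 and -0.86 (deficit, A17 roots), -0.093 and 0.061 (deficit, cra2 shoots; isoform 1 -0.030 and 0.20), -1.53 and -1.32 (cra2 minus A17, shoots, satiety), -0.055 and 0.28 (the same under deficit), 1.33 and 1.66 (difference of nitrogen responses, shoots, called without cra2 deficit replicates 1 or 3) and -0.30 and 0.71 (roots). Between organs it moved between -0.93 and -0.52 (A17, deficit), 0.97 and 1.44 (cra2, satiety) and 1.37 and 2.01 (cra2 minus A17, satiety, called without cra2 root satiety replicate 1).

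Same-numbered residuals correlated over 0.1 in 11 of 18 pairs in roots (-0.13 to 0.35) and 3 of 18 in shoots (-0.39 to 0.34), and in all 3 pairs for the nitrogen comparison in A17 roots only; in the other comparisons within an organ the numbers are taken as names. With a replicate block the sum changed by -1.50 in A17 shoots and -1.00 in A17 roots, no call of the sum changed in any comparison, and none of isoforms 1 and 2 in A17 roots. Isoform 2 in roots under deficit was called between genotypes (-1.99, adjusted p = 0.0498), and miR2111 in cra2 shoots was no longer called in either treatment. Over all features in A17 shoots, deficit gave 2 higher and 4 lower calls, DESeq2 gave 16 and 19, and library totals 0. Between genotypes in shoots under deficit there were 7 higher and 6 lower calls, against 36 and 3 with library totals. Without the opposite arm, which has no counts, the sum is the same. The deficit change in cra2 roots could not be fitted with only the libraries compared, since miR399 fell below the filter.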
